A study of Mus musculus with 26 samples.

Results

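The 10 genes followed here carry the inflammasome pathway and its innate cytokines: the receptors Tlr4 and Il1r1, the sensor Nlrp3, the adaptor Pycard, the protease Casp1, the pore former Gsdmd and the cytokines Il1b, Il18, Il33 and Il6. They were taken from the tables by symbol, with no threshold on a measured value. Of the 10 symbols, 8 had a row among the 21031 genes of the authors' normalized table, and Il1b and Il6 had none there. All 10 had a row among the 57010 genes of the authors' counts table, so all values below come from the counts.

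An inflammasome is a protein complex that forms in the cytoplasm when a sensor such as NLRP3 meets a danger signal. It recruits the adaptor ASC (encoded by Pycard) and activates caspase-1, which matures the cytokines IL-1β and IL-18 and cleaves gasdermin D into a membrane pore. In many cells a first signal, for example through TLR4 and NF-κB, raises Nlrp3 and Il1b transcripts before a second signal assembles the complex. Pannexin 1, a membrane channel that releases ATP, has been studied as a possible link between the purinergic receptor P2X7 and NLRP3. IL-33 is an alarmin held in the nuclei of stromal and endothelial cells.

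RNA sequencing measured these transcripts in mesenteric arteries, the small vessels that feed the gut, of male mice aged 8 weeks. The 26 libraries fall into 8 groups: 3 wild-type (WT) and 3 global Panx1 knockout (KO) libraries, 3 Y198F controls (genotype written Y198F-/-) and 3 Y198F mutants (Y198F+/+), 4 S205A controls (S205A-/-) and 4 S205A mutants (S205A+/+), and 3 Y308F controls (Y308F-/-) and 3 Y308F mutants (Y308F+/+). Y198F, S205A and Y308F each change 1 residue of pannexin 1, and the controls are described as littermates or wild-type mice. No treatment is named for any group. Arteries were sequenced whole, so a transcript's level combines all cell types of the vessel wall, and fewer cells of a type cannot be told apart from less RNA per cell. The design text speaks of 3 vascular trees per mutant, whereas each S205A group has 4 libraries, so libraries of an S205A group may share a source. The labels do not say whether each library comes from 1 animal, and p-values measure the spread between these libraries.

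Libraries held 14.9 to 23.6 mega-counts. Levels are in CPM, counts scaled to library sizes that were normalized over all 26 libraries. A number starting with 22 appears in the names of 9 libraries, which are called the 22 series below. They are all 3 Y198F mutants, 3 of the S205A controls (1 to 3) and 3 of the S205A mutants (2 to 4). The labels do not explain the number, and for Y198F mutation and series cannot be told apart. Only the S205A line has libraries of both kinds, so a series term in an all-group fit is estimated from that line alone. In the KO libraries Panx1 itself measured 0.582, 0.944 and 1.36 CPM, against 4.96, 3.38 and 4.89 CPM in WT. The groups did not overlap, and the log2 fold change came to -2.17 (SE 0.388), with an adjusted p of 0.250 by edgeR and 0.000814 by DESeq2. S205A control 1 stood apart: its 5 endothelial markers summed to 804 CPM, against 2286 to 6195 CPM in the other 25 libraries. Its 5 smooth muscle markers summed to 37850 CPM, above the 18586 to 32245 CPM of the others. Smooth muscle and endothelial markers were thus present in every library, as the tissue label states. Of 8 neutrophil and monocyte markers, Ly6g, Cxcr2 and Retnlg never exceeded 3 counts in a library, while each of the others did in at least 1. The 8 markers summed to 3.21 CPM in S205A control 1 and to 2.13 to 12.9 CPM in the other 25 libraries.

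Proximal promoters are printed for the 2 cytokines at the bottom of the range, Il1b and Il6, and for Il33, whose highest library was 12.9 times its lowest, the widest ratio among the members with no library at 0. RefSeq promoter windows on GRCm38.p6 were found for 8 of the 10 members. For Il1r1, Nlrp3 and Il33 the table held 2 starts, of which the one farthest upstream was used and the other was not searched. Each sequence is the 250 bases before that start, in the direction of transcription, and capitals mark matches to TATAAA, the letters of a TATA box, or to GGGNNNTTCC, a core NF-κB motif, searched on both strands. The windows are chr2:129371140-129371389 on the minus strand for Il1b, chr5:30012864-30013113 on the plus strand for Il6 and chr19:29924863-29925112 on the plus strand for Il33.
Il1b: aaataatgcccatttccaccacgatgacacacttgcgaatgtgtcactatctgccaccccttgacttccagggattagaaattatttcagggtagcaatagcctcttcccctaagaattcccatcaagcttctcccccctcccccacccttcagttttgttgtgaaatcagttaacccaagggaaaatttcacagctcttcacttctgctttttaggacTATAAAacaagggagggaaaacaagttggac
Il6: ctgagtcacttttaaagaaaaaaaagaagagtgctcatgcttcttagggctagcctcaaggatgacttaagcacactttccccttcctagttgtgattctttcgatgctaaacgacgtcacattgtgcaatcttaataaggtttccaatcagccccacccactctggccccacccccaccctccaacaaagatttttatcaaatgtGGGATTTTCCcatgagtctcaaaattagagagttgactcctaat
Il33: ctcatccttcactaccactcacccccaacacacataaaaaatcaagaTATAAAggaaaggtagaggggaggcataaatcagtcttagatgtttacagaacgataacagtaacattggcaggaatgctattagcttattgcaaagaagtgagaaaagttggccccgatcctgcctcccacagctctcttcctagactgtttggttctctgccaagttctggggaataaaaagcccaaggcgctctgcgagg
Il1b held TATAAA 31 bases before its start, Il18 (not printed) held it on the other strand 175 bases before, and Il33 held it on its own strand 203 bases before. Il6 held an NF-κB motif 44 bases before its start. Of 32851 RefSeq promoter windows of this length, 12.4% held TATAAA and 4.65% held GGGNNNTTCC on either strand. No other member with a window matched GGGNNNTTCC, which says only that these letters were not in it.

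The members spanned a wide range of levels. Scaled per kilobase of annotated exon, the means over 26 libraries were 10.1 CPM per kb for Gsdmd, 9.33 for Il1r1, 4.75 for Casp1, 4.61 for Tlr4 and 2.69 for Il33, all in CPM per kb. Below them came Pycard at 1.09, Il18 at 0.304, Il6 at 0.0356, Nlrp3 at 0.0290 and Il1b at 0.0117 CPM per kb. The executioner end of the pathway and the receptors were thus measured well, while the sensor and the cytokines IL-1β and IL-6 were barely sampled. Taking the longest transcript as the length put Tlr4 (7.85 CPM per kb) above Casp1 (6.71 CPM per kb) and left the rest of the upper order as it was. For each of the 10 members, all 7 neighbouring pairs in the order of the 8 group means had overlapping libraries. The same held for Panx1, which was lower in KO than in WT, so this count does not show that the groups were alike. Of the members, 6 (Tlr4, Pycard, Casp1, Gsdmd, Il1b and Il33) share 95 to 485 exonic bases with a gene annotated on the other strand, and whether counting used the strand is not stated, so reads from those stretches cannot be assigned.

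**Figure D1:**
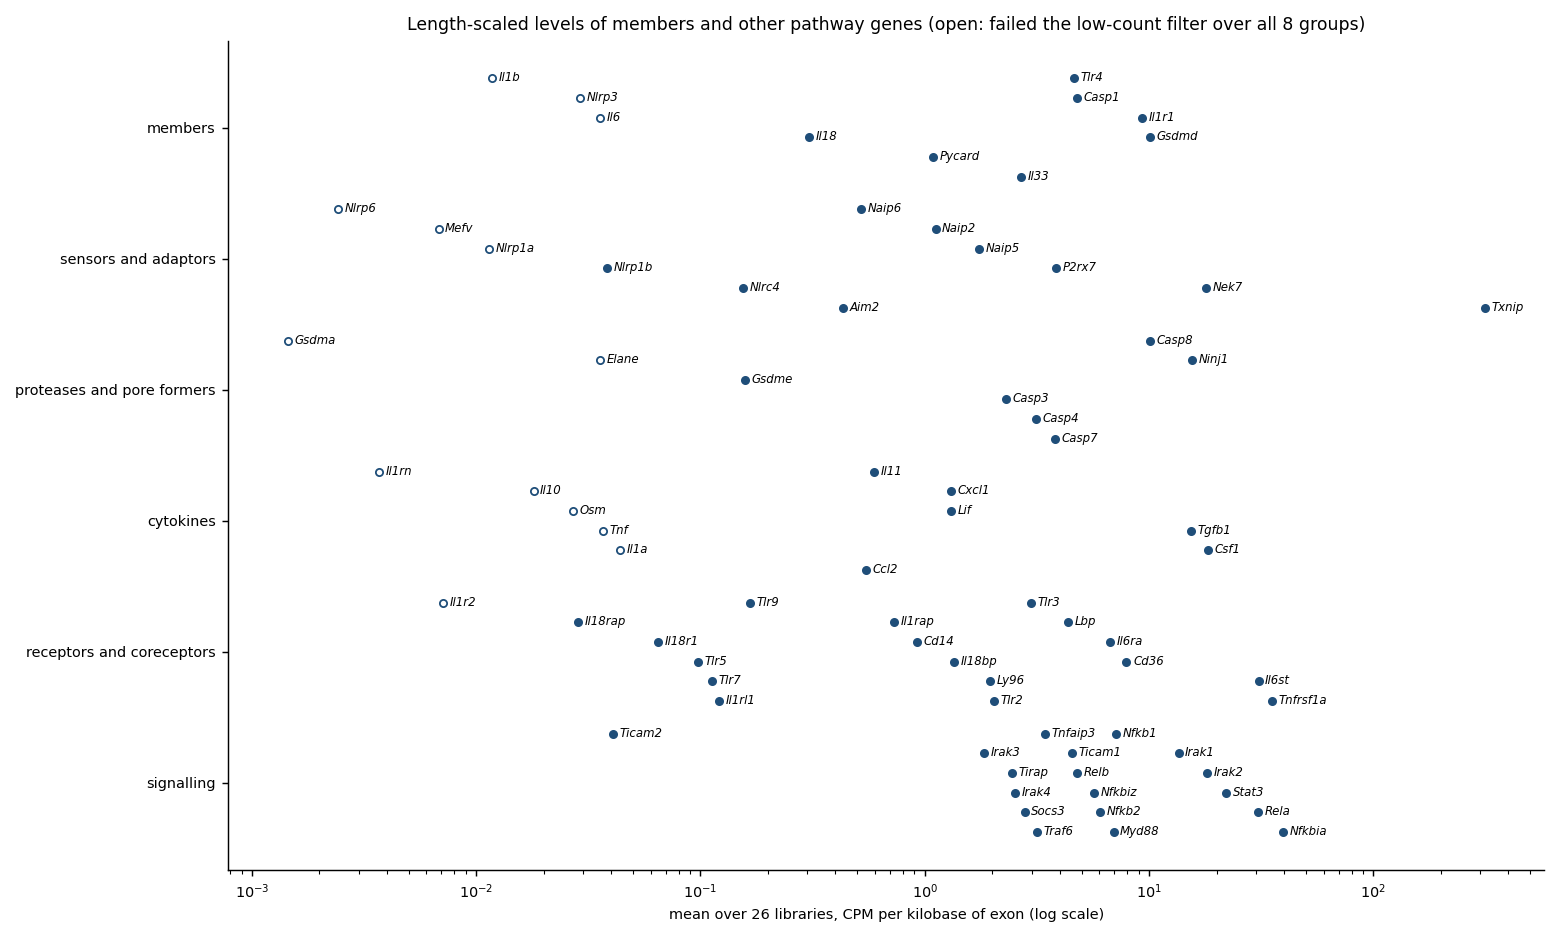
Mean level over 26 libraries in CPM per kilobase of exon (log scale) for the members and for other genes of the pathway by role; open points failed the low-count filter over all 8 groups. Il1b, Nlrp3 and Il6 lie below 0.04 CPM per kb, and Gsdmd and Il1r1 lie near 10 CPM per kb. Gsdmc and Il36a had no counts and are not drawn.

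Tlr4, the receptor for bacterial lipopolysaccharide (chr4:66745783-66849936, plus strand, GRCm39), ran from 24.0 to 44.8 CPM with a median of 32.3 CPM. Its group means lay between 28.5 CPM in WT and 35.1 CPM in Y308F. The S205A controls were the most scattered group, at 24.0, 44.8, 26.3 and 42.2 CPM. Il1r1, the receptor through which IL-1 signals (chr1:40264174-40356417, plus strand), was the steadiest member, with its highest library 1.70 times its lowest. It measured 60.6, 54.8 and 45.9 CPM in WT, and 59.3, 77.9 and 70.6 CPM in KO. Of the KO libraries, 2 lay above every WT library and 1 lay inside the WT range.

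The partners of these receptors were also present. Of the TLR4 coreceptors, Ly96 (MD-2) averaged 2.41 CPM and Cd14 averaged 1.61 CPM. Il1rap, the signalling partner of IL1R1, averaged 11.1 CPM, while Il1rl1, the receptor of IL-33, averaged 0.837 CPM and was at 0 in 4 libraries. Il6st and Il6ra, which together form the IL-6 receptor, averaged 478 and 59.6 CPM. Per kilobase of exon Il6st reached 30.8 CPM per kb, against 0.0356 CPM per kb for its ligand Il6.

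Nlrp3 (chr11:59432394-59457782, plus strand) gave 57 counts over all 26 libraries, between 0 and 6 per library, and was at 0 in 9. Pooled over library totals, that is 0.116 CPM, with an exact Poisson interval of 0.0880 to 0.151 that covers counting error only. In KO it gave 6, 2 and 4 counts, and in WT 3, 0 and 3 counts. These counts overlap and sit around the floor of 3 counts, which equals 0.127 to 0.201 CPM depending on the library, so no difference between groups was detectable at this depth. Of the 9 other sensor genes listed, Naip5, Naip2 and Naip6, which detect bacterial proteins for NLRC4, averaged 9.10, 7.35 and 3.55 CPM. The Naip genes are close paralogs, so the division of reads among them is uncertain. Aim2, a sensor of DNA, averaged 2.85 CPM, Nlrc4 0.750 CPM and Nlrp1b 0.242 CPM. Nlrp1a, Mefv and Nlrp6 gave 29, 12 and 6 counts over all libraries and did not pass the low-count filter. Nek7 (an NLRP3 partner), Txnip (an NLRP3 ligand in some cells) and P2rx7 (the P2X7 receptor) averaged 178, 992 and 37.5 CPM.

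Pycard (chr7:127588558-127593039, minus strand) ran from 1.54 to 8.43 CPM. Its group means lay between 3.78 CPM in WT and 6.32 CPM in the Y308F controls. The Y198F mutants alone covered nearly the whole span, at 8.42, 1.54 and 2.61 CPM, with the first library above and the second below all 3 Y198F controls (4.37, 5.18 and 2.24 CPM).

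Casp1 (chr9:5298508-5307290, plus strand) lies 9.61 megabases from Panx1 on the same chromosome. It measured 13.4, 19.0 and 15.7 CPM in WT, and 18.6, 10.1 and 16.7 CPM in KO. It measured 3.11, 20.8, 15.1 and 22.5 CPM in the S205A controls, and 10.4, 11.8, 11.8 and 10.7 CPM in the S205A mutants. The mutants were the tightest group and lay between the first control and the other 3. The 3.11 CPM of S205A control 1 is the lowest of all 26 libraries, the other 25 of which ran from 10.1 to 22.5 CPM.

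Gsdmd (chr15:75733974-75739257, plus strand), whose cleaved product opens the pyroptotic pore, also had its lowest library in S205A control 1, at 12.9 CPM against 21.2 to 46.8 CPM in the other 25. It measured 24.9, 29.0 and 24.6 CPM in the Y198F controls, and 27.3, 36.4 and 39.7 CPM in the Y198F mutants. The groups overlapped through the first mutant library. In KO it measured 28.9, 28.0 and 30.1 CPM, against 36.2, 30.0 and 29.5 CPM in WT.

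Among the cytokines, Il1b (chr2:129206490-129213059, minus strand) gave 15 counts in all, at most 5 in a library, and was at 0 in 19 of 26. Pooled over library totals, that is 0.0306 CPM (exact Poisson interval 0.0171 to 0.0504). The 5 counts came from Y198F mutant 3, whose 2 fellow libraries were at 0. All 3 KO and all 4 S205A control libraries were at 0, which allows up to 3 counts per library. Il6 (chr5:30218112-30224979, plus strand) gave 43 counts, of which 15 came from S205A mutant 1 and 11 from Y308F mutant 1. It was at 0 in 17 libraries, including all WT, Y198F mutant, S205A control and Y308F control libraries. Il6 was at 0 in S205A mutants 2 and 4, at 4 counts in mutant 3, and at 2 and 1 counts in Y308F mutants 2 and 3, so its total rests on a few libraries.

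Of the 12 other cytokine genes listed, 6 gave few counts and did not pass the low-count filter: Tnf gave 30 counts over all libraries, Il1a 76, Il1rn 10, Osm 29 and Il10 12, and Il36a gave 0. The other 6 passed it. Csf1 and Tgfb1, a macrophage growth factor and a matrix regulator, averaged 107 and 77.9 CPM. Lif and Il11, cytokines of the IL-6 family, averaged 6.01 and 1.23 CPM, and the chemokines Cxcl1 and Ccl2 averaged 2.45 and 0.621 CPM.

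Il18 (chr9:50466081-50493633, plus strand) lies 35.5 megabases from Panx1 and ran from 4 to 47 counts per library, or 0.212 to 2.42 CPM. Its group means lay between 0.620 CPM in the Y198F controls and 1.47 CPM in the Y308F controls, with SDs of 0.226 and 0.843 CPM (n = 3 each). Il33 (chr19:29902483-29938933, plus strand) ran from 3.16 to 40.7 CPM. It measured 31.8, 20.3 and 40.7 CPM in WT, 26.9, 19.1 and 25.3 CPM in KO, and 3.16, 11.0, 6.16 and 17.4 CPM in the S205A controls. All 3 WT libraries lay above all 4 S205A controls, but these are the groups with the highest and lowest means, picked after sorting. The share of all genes that separate in this pair was not counted. In the all-group fit with the series as a term, S205A controls minus WT came to -1.14 on the log2 scale (SE 0.617, edgeR adjusted p 0.522). The S205A mutants measured 19.8, 7.53, 24.3 and 11.3 CPM and the Y198F mutants 7.06, 5.67 and 16.8 CPM. The Y198F controls measured 15.1, 19.6 and 12.4 CPM, so 2 of the 3 Y198F mutants lay below all their controls.

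**Figure D2:**
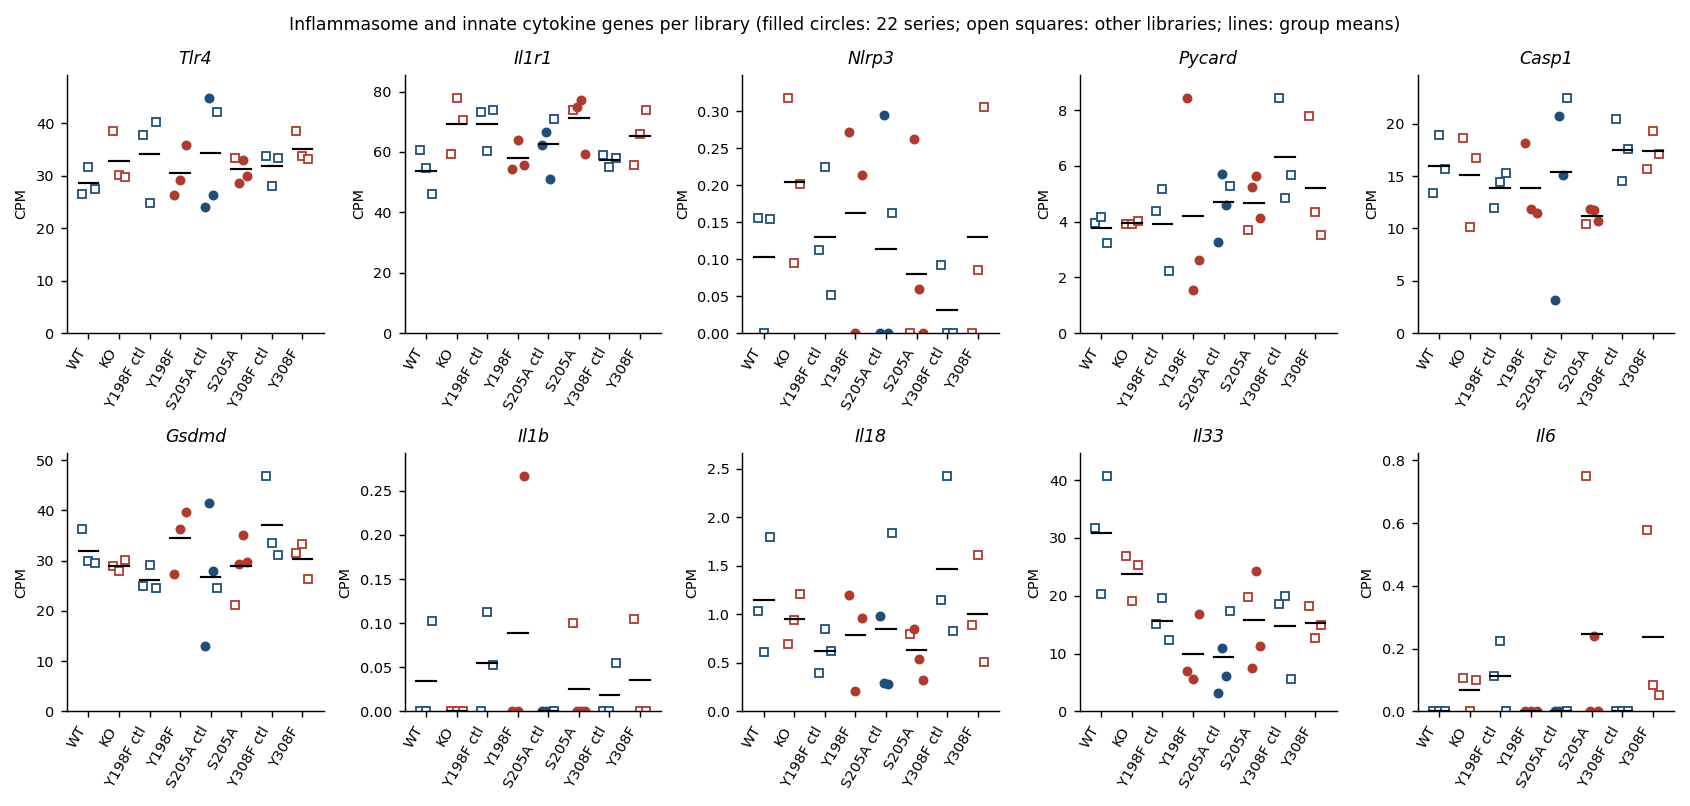
CPM of each member (vertical axis, linear, from 0) in each library of the 8 groups; blue marks control groups, red marks mutants, filled circles mark the 22 series, open squares mark other libraries and lines mark group means. Casp1 and Gsdmd share one low library among the S205A controls, at 3.11 and 12.9 CPM, and Il33 is highest in WT.

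Of the 10 members, 7 passed the low-count filter of every comparison (Tlr4, Il1r1, Pycard, Casp1, Gsdmd, Il18 and Il33), and Nlrp3, Il1b and Il6 passed in none. In the Panx1 knockout none of the 7 passed the threshold of an adjusted p under 0.05 by edgeR, or by DESeq2, where 0.0309% of 16193 tested genes did by edgeR. Il1r1 was the nearest, at 0.39 on the log2 scale (SE 0.135), a 95% interval of 1.06 to 1.62 fold and an edgeR adjusted p of 0.373. It was the 1 member with an unadjusted p under 0.05, a level that 11.2% of all tested genes reached. Casp1 differed by -0.06 on the log2 scale (SE 0.238), with an interval of 0.660 to 1.40 fold, and Gsdmd by -0.12 (SE 0.116), with an interval of 0.770 to 1.11 fold. For Casp1 and Gsdmd a change beyond those bounds lies outside the interval, while Il18 (0.365 to 1.92 fold) was measured too loosely to bound a 2-fold fall. The median log2 fold change of the 7 was -0.06, beside 0.01 over all tested genes, with 3 members above 0 and 4 below.

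In Y198F against its labelled controls, none of the 7 passed by edgeR or DESeq2, where 15% of 16050 tested genes did by edgeR. Gsdmd differed by 0.39 on the log2 scale (SE 0.149, edgeR adjusted p 0.103) and Il1r1 by -0.26 (SE 0.112, adjusted p 0.151), and both had an unadjusted p under 0.05, as did 29.1% of all tested genes. Il33 differed by -0.68 on the log2 scale (SE 0.419, edgeR adjusted p 0.346). The 6 fibroblast markers moved with it. Their sum was 1328 to 2123 CPM in the Y198F mutants, below the 2206 to 2792 CPM of all 3 controls. Their median log2 fold change was -1.04, none past the threshold. The Schwann sum was lower too, at 77.7 to 91.7 CPM against 94.9 to 171 CPM (median -0.66, 1 marker past the threshold). Of all tested genes, 34.2% did not overlap in this comparison. Lymphatic endothelial and macrophage markers had medians of -1.13 and -0.53. Adipocyte and lymphocyte markers were among the lists that went the other way (1.26 and 1.18). The part of fibroblast or other cell content in the Il33 value was not tested. The side of the threshold on which Il33 fell depended on 1 library: without Y198F mutant 3 the value was -1.30, with an edgeR adjusted p of 0.00843. With no low-count filter it was -0.70, with an edgeR adjusted p of 0.0256. Gsdmd passed without Y198F mutant 1, at 0.53 and an adjusted p of 0.0250. With S205A controls 1 to 3, which belong to the same 22 series, in place of the labelled controls, no gene passed (0% of 15879), Il33 differed by 0.53 on the log2 scale (SE 0.566), Gsdmd by 0.32 (SE 0.413) and Il1r1 by -0.05 (SE 0.138). Thus the Il33 estimate was negative against the labelled controls and positive against the series-matched ones, in neither case beyond the threshold. The libraries overlapped in both, and the value of 0.53 was smaller than its SE, so a change of direction is not resolved. Without S205A control 1 among those matched controls, the values were 0.20 for Il33, -0.01 for Gsdmd and -0.02 for Il1r1. With the series as a term in the fit of all 8 groups they were 0.26, 0.04 and -0.10, with that term estimated from the S205A line.

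In S205A no gene passed by edgeR (0% of 15709 tested genes), and none of the 7 members had an unadjusted p under 0.05, beside 2.87% of all tested genes. No member passed by DESeq2. Il33 had the largest difference, at 0.74 on the log2 scale (SE 0.529), with an interval of 0.729 to 3.82 fold. It ran from 0.45 without S205A mutant 3 to 1.22 without S205A control 4, was also 0.45 without S205A control 1, and stood at 1.09 within the 22 series. The 6 fibroblast markers moved with it: their sum was 992 to 1442 CPM in the S205A controls and 1434 to 4197 CPM in the mutants, and their median log2 fold change was 1.40, none past the threshold. The immediate early genes, which respond fast to stimulation and handling, summed to 461 to 941 CPM in the controls and 870 to 3110 CPM in the mutants (median log2 fold change 1.09), and the Schwann cell markers to 48.7 to 72.9 CPM and 67.6 to 163 CPM (median 1.04). None of these genes passed the threshold. The part of fibroblast content or of these other lists in the Il33 values and in the Il6 counts of S205A mutant 1 was not tested. Casp1 differed by -0.46 on the log2 scale (SE 0.477), which became -0.80 without S205A control 1 (edgeR adjusted p 0.670), -0.29 without S205A control 2, -0.21 without S205A control 4 and -0.18 within the 22 series. Controls 2 to 4 measured 15.1 to 22.5 CPM of Casp1, all above the 10.4 to 11.8 CPM of the mutants. Control 1 lay below all mutants, at 3.11 CPM, so the full groups overlapped (p 0.914 by the exact permutation test). How many of all genes separate once control 1 is left out was not counted. In the fit of all 8 groups with the series as a term and S205A control 1 left out, Casp1 differed by -0.79 on the log2 scale (SE 0.204, edgeR adjusted p 0.231).

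In Y308F no gene passed by edgeR (0% of 16037 tested genes), and no member had an unadjusted p under 0.05, beside 4.4% of all tested genes. No member passed by DESeq2. Il1r1 differed by 0.20 on the log2 scale (SE 0.128), Gsdmd by -0.28 (SE 0.177) and Il18 by -0.52 (SE 0.582). The value of Gsdmd was -0.07 without Y308F control 1 and -0.18 without Y308F mutant 3, and that of Il1r1 ran from 0.11 without Y308F mutant 3 to 0.29 without Y308F mutant 1. That of Il18 ran from -1.03 without Y308F mutant 2 to 0.03 without Y308F control 2. The immediate early genes summed to 366 to 421 CPM in the Y308F controls and 480 to 868 CPM in the mutants. Their median log2 fold change was 0.53, none past the threshold. Other lists moved down, among them the Schwann and lymphocyte markers (medians -0.66 and -0.74). Il6 gave 14 counts over the Y308F mutants and 0 over the controls, and the part of these lists in its counts was not tested. Casp1 stood at -0.003 on the log2 scale (SE 0.170), with an interval of 0.765 to 1.30 fold. In none of the 4 comparisons did the libraries of mutants and controls separate without overlap for any tested member, while 18.8%, 34.2%, 1.81% and 10.7% of tested genes did so in KO, Y198F, S205A and Y308F.

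**Figure D3:**
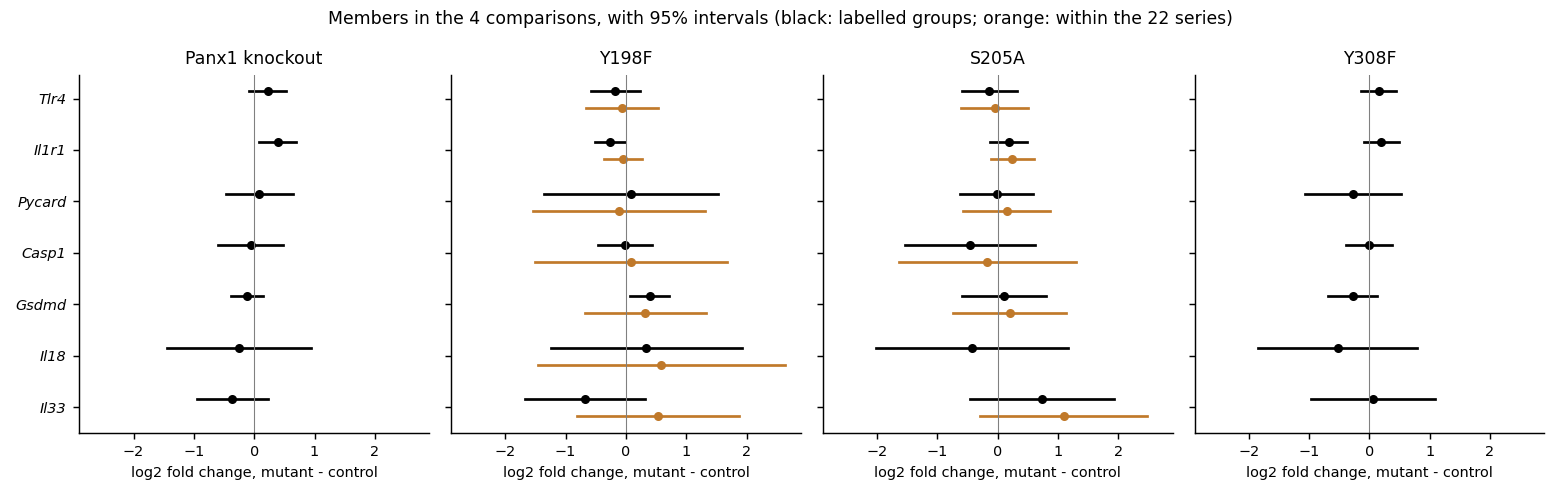
Log2 fold change of the 7 tested members (mutant minus control, horizontal axis) with 95% intervals in the 4 comparisons. Black shows the labelled groups and orange the fits within the 22 series, which for Y198F use S205A controls 1 to 3. Il33 stands at -0.68 and 0.53 in the 2 Y198F fits, with neither value past the threshold.

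Whether the 4 mutations differed from each other was asked in one fit of all 8 groups with the series as a term. The effects differed for 3 of 18715 genes (0.016%), none of them a member. Among the members the lowest p of this edgeR test was 0.309, for Il18. The 4 control groups were compared in the same fit, and no gene passed (0%). Il1r1 was nearest, with an unadjusted p of 0.0467 and an edgeR adjusted p of 0.519, and for Il33 the adjusted p was 0.648. The series term of that fit was past the threshold for 11.7% of genes and for no member. Its largest values among the members were -1.22 (SE 0.643) on the log2 scale for Il18 and -0.93 (SE 0.501) for Il33. The term rests on the S205A line, in which only control 4 and mutant 1 lie outside the 22 series.

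The authors' deposited tables listed 7 members in the KO, Y198F and S205A comparisons and 8 in Y308F, where Nlrp3 was added. No member passed there: the lowest adjusted p in the authors' deposited tables was 0.457 in KO, for Il1r1, and 0.838 in Y198F, for Gsdmd. In the authors' deposited table for Y198F the log2 fold change of Il33 was 0.04, unlike the -0.68 against the labelled controls. The columns of that table do not name its control libraries.

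Of 69 further genes of the pathway, 52, 50, 48 and 50 were tested in KO, Y198F, S205A and Y308F. None passed by edgeR except in Y198F against its labelled controls, where 4 were higher and 1 lower, beside 9.55% and 5.48% of all tested genes. The median log2 fold changes of those tested were 0.05, -0.05, -0.004 and -0.05. The higher ones were Rela, an NF-κB subunit (0.55, SE 0.0980, edgeR adjusted p 0.00422), Tgfb1 (0.53, adjusted p 0.00464), Tnfrsf1a, a TNF receptor (0.53, adjusted p 0.00611), and Ninj1, which ruptures the plasma membrane after pore formation (0.60, adjusted p 0.0130). Tnfaip3, an NF-κB inhibitor, was lower (-0.49, SE 0.141, edgeR adjusted p 0.0368). Tnfrsf1a measured 134 ± 12.3 CPM in Y198F (SD, n = 3) and 92.8 ± 3.61 CPM in its labelled controls (SD, n = 3), against 123 ± 21.2 CPM in the S205A controls (SD, n = 4). With the series-matched controls none of the 5 passed, and their log2 fold changes ran from -0.21 for Tnfaip3 to 0.02 for Tnfrsf1a. With the series as a term in the fit of all 8 groups, Tnfaip3 stood at -0.52 on the log2 scale (SE 0.217), with an edgeR adjusted p of 1, and at -0.57 with S205A control 1 left out, while Tnfrsf1a came to 0.09. In the all-group fit without the series term, Tnfrsf1a and Rela passed, while Tgfb1 had an edgeR adjusted p of 0.299, Ninj1 0.182 and Tnfaip3 0.0628. Of the fits that left out 1 library, Tnfaip3 passed only in the one without Y198F mutant 1, and its adjusted p rose to 0.120 without Y198F mutant 2. Ninj1 reached an adjusted p of 0.0731 without Y198F control 3 and 0.0566 without Y198F control 1. Against the labelled controls, neutrophil and monocyte markers summed to 7.58 to 9.94 CPM in the Y198F mutants, above all 3 controls. Of the 2 tested markers of that list (median log2 fold change 0.96), 1 passed as higher. So did 1 endothelial marker, while 1 smooth muscle marker passed as higher and 1 as lower. Macrophage markers had a median of -0.53, none past the threshold. The part of cell content in the values of these pathway genes was not tested.

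Across libraries, several members were related to the summed markers of 1 or more cell types. Levels were not adjusted for group or series here, so differences between groups and series enter r, rho and their p-values. In a family of 28 relations (7 members with the summed endothelial, smooth muscle, fibroblast and macrophage markers, log2 CPM, n = 26), Il33 followed the fibroblast sum. Pearson's r was 0.81 and Spearman's rho 0.82, each with a permutation p of 1e-05, the smallest these permutations can give, and an adjusted p of 0.00028. Without the 2 libraries farthest from the median r was 0.78, and it was 0.78 within the 22 series (n = 9) and 0.69 within the other libraries (n = 17). The relation of Il33 and fibroblast markers thus had the same sign within both series. Il33 also followed the macrophage sum (r 0.57, adjusted permutation p 0.00908; rho 0.62, adjusted 0.00567), with r 0.66 without the 2 farthest libraries, 0.32 within the 22 series and 0.62 within the others. It ran against the smooth muscle sum by Pearson's r (-0.59, adjusted permutation p 0.0084) but not by rank (rho -0.42, adjusted 0.166), and r was -0.42 without the 2 farthest libraries.

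Casp1 followed the endothelial sum, with r 0.83 (permutation p 5e-05, adjusted 0.0007) and rho 0.68 (adjusted permutation p 0.00187). Without S205A control 1 and Y308F control 1, the 2 farthest libraries, r fell to 0.52, and it was 0.95 within the 22 series and 0.56 within the others. Without S205A control 1 alone r was 0.57. Tlr4 also followed the endothelial sum (r 0.59, adjusted permutation p 0.00455; rho 0.68), with r 0.60 without the 2 farthest libraries. For Gsdmd, r with the endothelial sum was 0.75 (adjusted permutation p 0.00411) but rho was 0.26 (adjusted 0.471), and r fell to 0.29 without the 2 farthest libraries, so it rests on them. With the smooth muscle sum r was -0.54 for Casp1 (adjusted permutation p 0.0127) and -0.56 for Gsdmd (adjusted 0.0112), with adjusted p of 0.211 and 0.344 for rho. Without S205A control 1 and KO 3, the 2 farthest libraries there, those r values were -0.29 and -0.39. Il18 followed the macrophage sum (r 0.58, adjusted permutation p 0.00908; rho 0.56), with r 0.48 without the 2 farthest libraries, 0.37 within the 22 series and 0.59 within the others. The macrophage sum was low throughout, 11.2 to 177 CPM over 10 markers. Libraries share dissection and depth, and the part of cell content in any member's level was not tested.

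**Figure D4:**
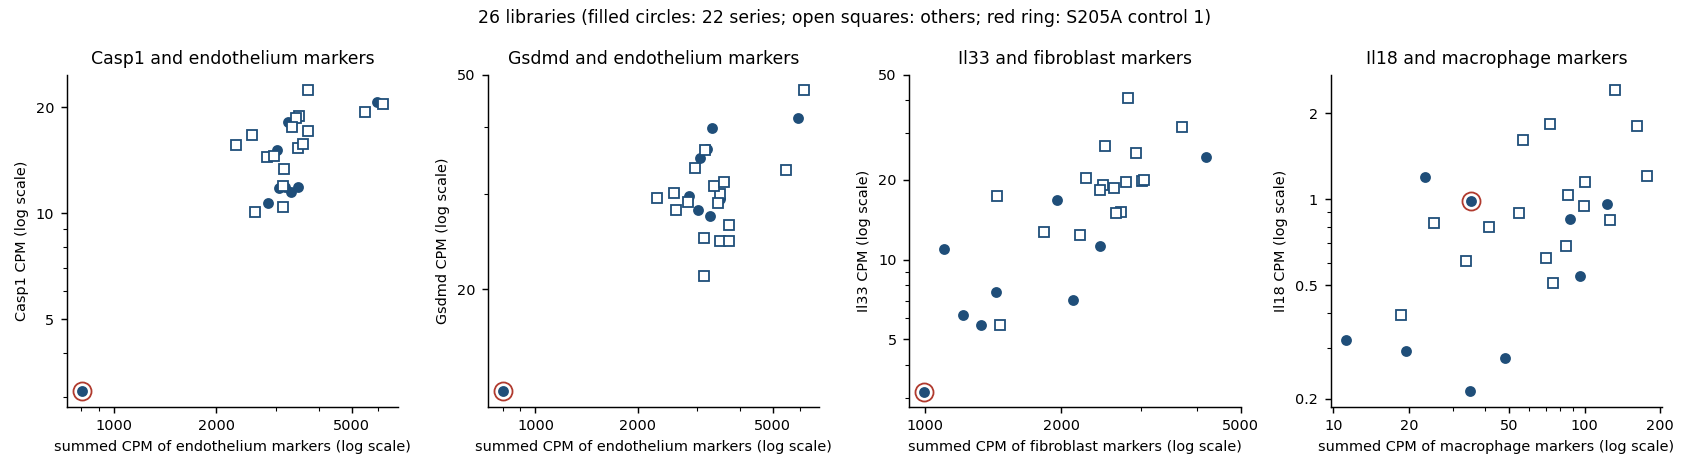
CPM of Casp1, Gsdmd, Il33 and Il18 (vertical axis, log scale) against the summed CPM of cell type markers (horizontal axis, log scale) in 26 libraries; the red ring marks S205A control 1. Il33 rises with fibroblast markers in both series (r 0.78 and 0.69), while the Gsdmd relation with endothelial markers rests on the 2 farthest libraries.

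For members with enough counts, the genes with the most similar pattern were sought among 14316 genes after group and series differences were removed, as a description over 26 libraries. Il33 was most like Rap2b, Htra3 and Vcan (r 0.92, 0.91 and 0.90), and Casp1 most like Cpne8, Gbp9 and Inpp1 (r 0.96, 0.95 and 0.94). Without S205A control 1 the Casp1 values fell to 0.83, 0.77 and 0.83, while those of Il33 were 0.91, 0.91 and 0.88. Gsdmd was most like Slc43a3, Vsir and Gxylt2 (r 0.93, 0.93 and 0.93, and 0.80, 0.78 and 0.76 without that library). Il1r1 was most like Stam2, Ints2 and Dync1li1, and Pycard most like Rer1, 2900041M22Rik and Esr1, with r from 0.75 to 0.81. Among the members themselves, Casp1 and Gsdmd had an r of 0.74, which was 0.06 without S205A control 1, whereas Gsdmd and Il33 had 0.65, and 0.57 without it.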

How the data were processed

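Per the labels, paired reads of 150 bases from poly(A) RNA were mapped to GRCm39 with STAR 2.7.9a and then counted with featureCounts of Rsubread 2.20.0. The annotation release and strand setting are not given in the sources used here. The authors deposited whole-number counts per gene, a normalized signal (counts divided by a factor per library) and 4 DESeq2 1.46.0 tables with log2 fold changes, a test score and p-values.

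Here edgeR 4.0.16 in R 4.3.3 tested the deposited counts with its quasi-likelihood test: TMM normalization, the filterByExpr filter, robust dispersion, the groups of each comparison only, Benjamini-Hochberg adjustment over all genes tested and a threshold of 0.05. The 2 omnibus tests used all 26 libraries with the 22 series as a term. CPM values share one TMM scale, log2 CPM used a prior count of 2, and lengths and coordinates come from GENCODE vM39. Relations between libraries used 100000 permutations. Exact two-sided permutation tests of single members gave a p of 0.2 or more, and 3 against 3 libraries cannot go below 0.1, nor 4 against 4 below 0.0286. Alternatives were DESeq2 1.42.0, its size factors in edgeR, a fit of all 8 groups, the series as a term, no filter, a replicate block and each library left out; the series-matched fits and the fit with the series term that also leave out S205A control 1 were added after seeing the data. Scripts were tested on simulated data. Counts of every replicate pair differed beyond sampling noise (chi-square per degree of freedom at least 15.0).

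Members and lists were chosen with earlier results of these data known. Named genes are all members, Panx1, pathway genes past the threshold (up to 6 per comparison) or with the 2 highest levels per role in CPM per kilobase of exon, and the 3 genes most like each member with enough counts; those of Tlr4 are not reported here. On that scale the 2 highest per role were Txnip and Nek7, Ninj1 and Casp8, Csf1 and Tgfb1, Tnfrsf1a and Il6st, and Nfkbia and Rela. The remaining pathway genes in the text were named for their roles after their values were seen. Poisson intervals and floors cover counting error only, while intervals of fold changes come from edgeR and include the spread between libraries.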

Additional observations from a re-analysis of the deposited data

Results flagged for a closer look

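Il1b in the S205A mutants had 1 library far from the other 3, at 2 counts against 0, 0 and 0. This was 1 of 20 groups of 4 libraries tested for such a gap. The critical value is set so that chance passes it in about 1 in 20 groups of continuous values, which these small counts are not, and groups with every library at 0, such as Il1b and Il6 in the S205A controls, cannot pass it. The 2 counts lie below the floor of 3.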

How the results depend on the processing

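No member passed in any of the 13 KO, 18 S205A and 13 Y308F settings, nor in 13 of the 16 Y198F settings. In Y198F, 1 member passed with no filter (Il33, -0.70, edgeR adjusted p 0.0256), without mutant 1 (Gsdmd) and without mutant 3 (Il33), so leaving out 1 library gave 0 to 1. Genes past the threshold in KO numbered 5, but 107 by DESeq2, 243 with no filter, 18 with the replicate block and 1 to 5 with 1 library left out. In Y198F they numbered 2411, but 922 with all 8 groups in one fit, and 0 with the series as a term, with S205A controls 1 to 3 or only 2 and 3, and with the series as a term without S205A control 1. With 1 library left out they numbered 908 to 2128. In S205A they numbered 0, but 40 by DESeq2 and 0 to 1 with 1 library left out. In Y308F they numbered 0, but 7 with no filter and 0 to 1 with 1 library left out. Genes that differ among the control groups numbered 0, but 460 without the series term, 1 with no filter and 0 to 2 with 1 library left out. The cause was not tested.

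No value that changed sign passed the threshold in the setting that reversed it. In Y198F, with the series as a term, log2 fold changes were 0.11 for Tlr4, 0.36 for Casp1, 0.26 for Il33 and -0.28 for Ninj1. With that term and without S205A control 1 they were 0.012 for Tlr4, -0.11 for Pycard, 0.083 for Casp1, -0.14 for Gsdmd, 0.044 for Il33, -0.31 for Ninj1 and -0.021 for Tgfb1. With S205A controls 1 to 3 they were -0.11 for Pycard, 0.087 for Casp1, 0.53 for Il33, -0.069 for Ninj1 and -0.078 for Tgfb1. With S205A controls 2 and 3 they were -0.30 for Pycard, -0.013 for Gsdmd, 0.20 for Il33, -0.14 for Ninj1, -0.12 for Rela, -0.44 for Tgfb1 and -0.060 for Tnfrsf1a. In S205A, Pycard was 0.15 within the 22 series. Without S205A control 1, Gsdmd was -0.13 within the 22 series and -0.17 with the series term, where Il18 was 0.21. In Y308F, Casp1 was 0.010 by DESeq2, 0.0069 with DESeq2 size factors, 0.012 with no filter and 0.0067 with the replicate block.

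Leaving out 1 library in turn also moved some log2 fold changes across 0. In KO it ran from -0.011 to 0.16 for Pycard, -0.25 to 0.16 for Casp1 and -0.56 to 0.22 for Il18. In Y198F it ran from -0.93 to 0.49 for Pycard, -0.26 to 0.11 for Casp1, -0.10 to 0.78 for Il18 and -0.19 to 0.42 for Panx1. In S205A it ran from -0.27 to 0.0063 for Tlr4, -0.16 to 0.084 for Pycard, -0.12 to 0.39 for Gsdmd and -0.72 to 0.27 for Il18. In Y308F it ran from -0.68 to 0.0023 for Pycard, -0.12 to 0.13 for Casp1, -1.03 to 0.032 for Il18, -0.32 to 0.33 for Il33 and -0.24 to 0.36 for Panx1.

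The replicate numbers did not pair the libraries: no comparison had every same-numbered correlation above 0.1, and 2 of 3, 1 of 3, 1 of 4 and 1 of 3 numbers correlated best with their own in KO, Y198F, S205A and Y308F. With the replicate block 1760 genes passed in Y198F and no member in any comparison, and Pycard in Y198F was -0.14. Il18 did not pass the filter within the 22 series of S205A and has no value there. Depth left Nlrp3, Il1b and Il6 untested in the main comparisons.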

Other observations

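After group and series differences were removed, the residual levels of Panx1 and Il33 had an r of 0.76 over 26 libraries, and 0.70 without S205A control 1. For Panx1 and Gsdmd the values were 0.71 and 0.61, and for Panx1 and Casp1 0.45 and 0.03. These are descriptions chosen after the values were seen. Panx1 was low in S205A control 1, at 16 counts. Casp4, the caspase that senses cytoplasmic lipopolysaccharide, lies beside Casp1 on chromosome 9, 9.58 megabases from Panx1. Casp4 measured 10.8 CPM in S205A control 1 and 9.74 to 24.9 CPM in the other 25 libraries.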
